A study of Mus musculus with 7 samples.

Results

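The 10 actin and thymosin cytoskeleton genes described here are Actb, Actg1, Actg2, Tmsb4x, Tmsb10, Tpm1, Tpm4, Myl9, Cnn2 and Flna. Their probes were found by the gene name that the array design prints beside each probe, which gave 20 of the 55681 non-control probes. By the mm9 positions of the design, 15 of these probes lay on the chromosome of the gene itself and 5 lay elsewhere, namely 4 probes named Actg1 and 1 named Tmsb10. All 20 probes could be tested, and 19 of them were well above background on all 7 arrays. Expression was read in whole liver of C57BL/6J mice at the age of 4 weeks, with 1 array of 1 dye per mouse, in 4 Rbpj+/+ mice (AlfpCre- Rbpj flox/flox) and 3 Rbpj-/- mice (AlfpCre+ Rbpj flox/flox). Both groups thus carried floxed alleles of Rbpj, the DNA-binding factor of Notch signalling, and Cre driven by the Alfp (albumin and alpha-fetoprotein) control regions deletes it in cells of the hepatoblast lineage, so that the other cells of the liver keep it. The study describes the Rbpj-/- livers as cholestatic.

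Actin monomers assemble into filaments that carry the shape, tension and movement of a cell. Beta thymosins hold monomers in reserve, tropomyosins run along the filament and set which proteins may bind it, calponins and the regulatory light chains of myosin tune contraction, and filamins join filaments into networks. In liver the cytoplasmic forms are made by all cell types, and the smooth muscle forms are best known from vessel walls and from stellate cells that have turned into myofibroblasts.

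In Rbpj-/- liver 7 of the 10 genes rose, between 1.81-fold and 3.58-fold, namely both beta thymosins, Actg1, Actg2, Tpm4, Cnn2 and Flna. The 3.58-fold is that of Actg2, a dim probe whose fold change depends on the background correction. That probe could be tested only because all 3 Rbpj-/- mice were well above background, against 3 of the 4 Rbpj+/+ mice. Actb, Myl9 and the brightest probe of Tpm1 did not pass the test. Among the 20 probes 17 rose and 0 fell at an adjusted p below 0.1 (limma, adjusted over all tested probes), while 33.6% of all 24548 tested probes passed in either direction and 14.3% rose. The 3 Rbpj-/- mice lay above all 4 Rbpj+/+ mice for the same number of probes, 17 of 20, against 15.0% of all tested probes. Taking the brightest tested probe of each gene, 14.6% of all 18755 tested genes rose and 19.5% fell. Over the 10 genes the median log2 fold change reached 1.01, and over the 20 probes 1.09, while it stood at -0.12 for all tested probes and at -0.13 for all tested genes. The 10 genes were chosen with earlier results of these data known, so these counts and medians describe them only. Fewer cells of a type and less RNA per cell cannot be told apart in whole liver.

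**Figure D1:**
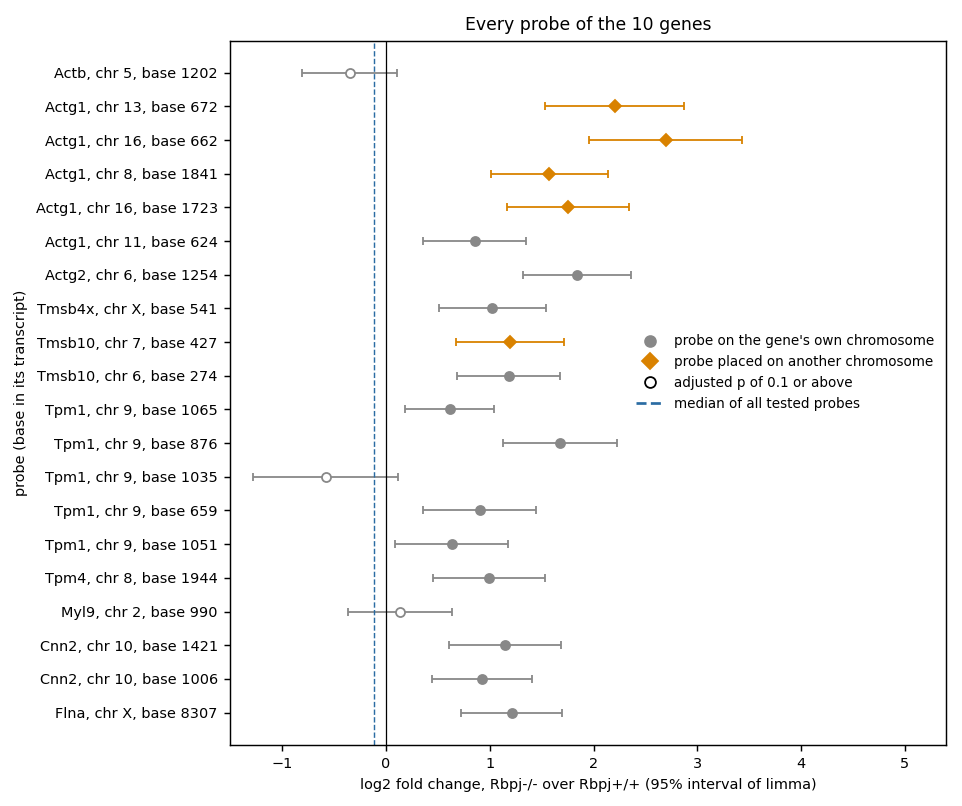
Log2 fold change of Rbpj-/- over Rbpj+/+ liver (horizontal axis) for each of the 20 probes (vertical axis, with chromosome and base in the transcript), with the 95% interval of limma. Circles are probes on the chromosome of the gene, diamonds are the 5 probes placed elsewhere, open symbols did not pass the adjusted p of 0.1, and the dashed line is the median of all tested probes at -0.12. The 4 diamonds of Actg1 lie between 1.57 and 2.69, to the right of the Actg1 probe on chromosome 11 at 0.85.

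Some facts of the arrays touch these values. Rbpj itself, read at base 5408 of its transcript on chromosome 5, was lower in all 3 Rbpj-/- mice (log2 difference -1.13 ± 0.24, where ± gives the standard error of limma, adjusted p = 0.0115), and whether the deleted part holds this probe is not given in the sources used here. A further probe named Rbpj, placed on chromosome 6, was lower by limma (-1.63 ± 0.58, adjusted p = 0.0723), but its groups overlapped. The 75th percentile of intensity, on which the arrays were scaled, was 57.5 to 103 in Rbpj+/+ and 118 to 143 in Rbpj-/- liver. The share of probes well above background was 61.8% on the array of Rbpj+/+ mouse 2 and 64.9% on that of Rbpj-/- mouse 1, against 41.1% to 47.7% on the other 5. The Rbpj+/+ arrays filled the first row of the slide and the Rbpj-/- arrays the second, so row and genotype cannot be told apart.

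The sequences of the Actg1 probes are shown because probes of this name gave unequal changes. Actg1 encodes cytoplasmic gamma actin, a protein nearly identical to other actins, and the gene has processed copies in the genome. The probe on its own chromosome lies at chr11:120208409-120208468 (mm9, minus strand) and covers bases 624 to 683 of the transcript. The probe at chr16:64918277-64918336 (minus strand) covers bases 662 to 721, and that at chr13:81204281-81204340 (plus strand) covers bases 672 to 731. All are 60 bases long, and capitals mark each base at which 2 of these overlapping probes differ.
Actg1, chromosome 11: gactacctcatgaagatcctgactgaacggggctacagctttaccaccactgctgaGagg
Actg1, chromosome 16: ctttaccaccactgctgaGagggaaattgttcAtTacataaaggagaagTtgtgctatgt
Actg1, chromosome 13: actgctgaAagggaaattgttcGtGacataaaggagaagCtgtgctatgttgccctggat

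The probes of chromosomes 11 and 16 share 22 bases without a difference. Those of chromosomes 11 and 13 share 12 bases with 1 difference, G57A counted from 1 at the 5′ end of the chromosome 11 probe. Those of chromosomes 16 and 13 share 50 bases with 4 differences, which are G19A, A33G, T35G and T50C counted from 1 at the 5′ end of the chromosome 16 probe. The other 2 probes named Actg1 lie further 3′ in the transcript, at base 1723 (chr16:64917216-64917275, minus strand) and at base 1841 (chr8:47316122-47316181, plus strand). By these positions the chromosome 16 probes at bases 662 and 1723 lie close together on the same strand. They are thus not separate placements.

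The own-chromosome probe of Actg1 had log2 levels of 5.13, 4.76, 4.90 and 5.25 in the Rbpj+/+ mice and of 5.87, 6.17 and 5.56 in the Rbpj-/- mice. A log2 level is the log2 intensity of a probe minus the 75th percentile of its array, and it can be compared between mice but not between probes. The groups did not overlap, and the gene rose 1.81-fold (log2 difference 0.85 ± 0.22, adjusted p = 0.0247). Without Rbpj-/- mouse 2 the difference was 0.70 and the adjusted p 0.105.

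All 4 Actg1 probes placed elsewhere rose more than that. The coding probe on chromosome 16 had levels of 0.65, 0.01, -0.37 and 0.56 in Rbpj+/+ and 3.09, 3.30 and 2.33 in Rbpj-/- mice, a 6.47-fold rise (2.69 ± 0.33, adjusted p = 0.00145). The coding probe on chromosome 13 had levels of 1.93, 1.60, 1.57 and 2.32 against 4.205, 4.495 and 3.472, a 4.60-fold rise (2.20 ± 0.30, adjusted p = 0.00212). In both probes Rbpj-/- mouse 3 was the lowest of its group and still lay well above every Rbpj+/+ mouse. The probe at base 1723 rose 3.36-fold (1.75 ± 0.26, adjusted p = 0.00309), from 5.42 to 6.29 in Rbpj+/+ to 7.31 to 7.76 in Rbpj-/- mice. The probe at base 1841 rose 2.98-fold (1.57 ± 0.25, adjusted p = 0.00402), from 3.88 to 4.49 to 5.39 to 5.97.

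The difference between placements was compared within each mouse, as the mean of the 4 probes elsewhere minus the own-chromosome probe. It was -1.85, -2.01, -2.23 and -1.84 in the Rbpj+/+ mice and -0.62, -0.78 and -0.94 in the Rbpj-/- mice. The groups did not overlap, and the shift was 1.20 on the log2 scale, or 2.30-fold (exact permutation test, two-sided, with 35 ways to split the mice, p = 0.0286, the smallest that this design allows, and 0.0571 adjusted over the 2 genes with probes elsewhere). Each of the 4 probes alone gave a shift in the same direction, of 1.84 and 1.35 for the coding probes on chromosomes 16 and 13 and of 0.90 and 0.72 for those at bases 1723 and 1841, each with a permutation p of 0.0286. The 5 probes named Actg1 thus all rose, by unequal amounts, and which transcripts each of them binds was not tested.

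**Figure D2:**
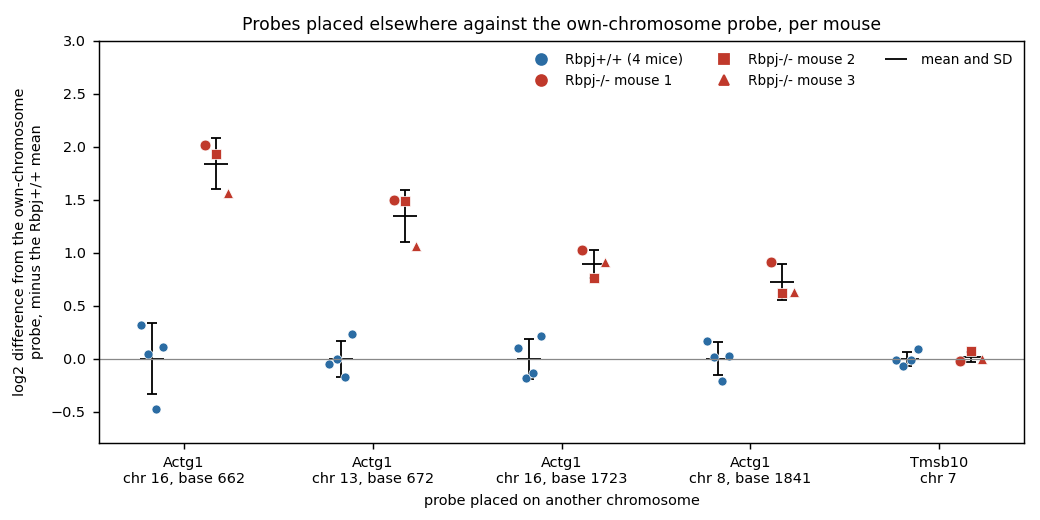
Difference on the log2 scale between a probe placed on another chromosome and the own-chromosome probe of its gene in each mouse, minus the mean of the Rbpj+/+ mice (vertical axis), for the 4 Actg1 probes and the Tmsb10 probe (horizontal axis). Circles in blue are the 4 Rbpj+/+ mice, red symbols the 3 Rbpj-/- mice, and bars the mean and SD. All Rbpj-/- mice lie above all Rbpj+/+ mice for each Actg1 probe, with mean shifts of 0.72 to 1.84, and the genotypes overlap for Tmsb10 at 0.02.

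Tmsb10, which encodes thymosin beta 10, has the other pair of placements. Its own-chromosome probe lies at chr6:72907489-72907548 (mm9, minus strand) and the other at chr7:25647492-25647551 (plus strand). They share 57 bases with 3 differences, and the 30 bases that hold all 3 are shown, with the differing bases in capitals.
Tmsb10, chromosome 6: gccacctgcGagatggaTgTgagccacaag
Tmsb10, chromosome 7: gccacctgcAagatggaCgCgagccacaag

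Here both placements moved alike. The chromosome 6 probe had levels of 2.52, 2.50, 2.83 and 2.85 in Rbpj+/+ and 4.13, 3.96 and 3.48 in Rbpj-/- mice, a 2.27-fold rise (1.18 ± 0.22, adjusted p = 0.00766). The chromosome 7 probe had levels of 2.99, 2.92, 3.29 and 3.42 against 4.58, 4.51 and 3.96, a 2.29-fold rise (1.20 ± 0.23, adjusted p = 0.00868). The probes differed by 0.48 ± 0.07 in the 4 Rbpj+/+ mice and by 0.49 ± 0.05 in the 3 Rbpj-/- mice (mean ± SD), and the shift of 0.02 was within the spread of the mice (exact permutation test, p = 0.714). Under normexp background correction the shift was 0.10 (exact permutation p = 0.0857), with the genotypes still overlapping.

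Tmsb4x, the X-linked gene of thymosin beta 4, was read by 1 probe at chrX:163645095-163645154. Its levels were 5.58, 5.34, 5.67 and 6.08 in Rbpj+/+ and 6.95, 6.57 and 6.55 in Rbpj-/- mice. The groups lay apart, and the rise was 2.03-fold (1.02 ± 0.23, adjusted p = 0.0146). Both beta thymosins thus rose, Tmsb4x 2.03-fold and Tmsb10 2.27-fold on its own chromosome.

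Actb, the cytoplasmic beta actin that is often used as a loading control, did not rise. Its probe at chr5:143665422-143665481 had levels of 9.252, 9.067, 9.660 and 9.510 in Rbpj+/+ and 8.996, 9.064 and 9.0004 in Rbpj-/- mice. The Rbpj-/- mice all lay below the Rbpj+/+ mice, though only just below mouse 2. The difference of -0.35 ± 0.20 did not pass (adjusted p = 0.230, exact permutation p = 0.0571), and its sign turned to 0.21 under quantile normalization and to 0.22 in the values of the series matrix. Before scaling, the intensities were 62540, 45870, 46467 and 54561 in Rbpj+/+ and 72769, 69467 and 60484 in Rbpj-/- mice, so the lower level is one relative to the 75th percentile of each array. No spot was saturated, and 0.0665% of all probes were as bright as this probe or brighter. Without Rbpj+/+ mouse 2 the difference was -0.45 and passed (adjusted p = 0.0965).

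Actg2, the gamma actin of enteric smooth muscle, rose most among the probes that represent the genes, a rank that depends on the background correction. The probe at chr6:83462904-83462963 had levels of -2.79, -2.48, -2.64 and -2.66 in Rbpj+/+ and -0.58, -0.55 and -1.29 in Rbpj-/- mice, and it was well above background in 3 of the 4 Rbpj+/+ and all 3 Rbpj-/- mice. The probe thus passed the filter only through the Rbpj-/- mice. The rise was 3.58-fold (1.84 ± 0.23, adjusted p = 0.00169), and 0.49 on the log2 scale under normexp background correction, which pulls dim probes together (adjusted p = 0.0332). Under that correction it was the smallest rise among the risen genes, the next being Cnn2 at 0.79. Rbpj-/- mouse 3 was again the lowest of its group, and the nearest mice of the groups were 1.19 apart on the log2 scale.

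**Figure D3:**
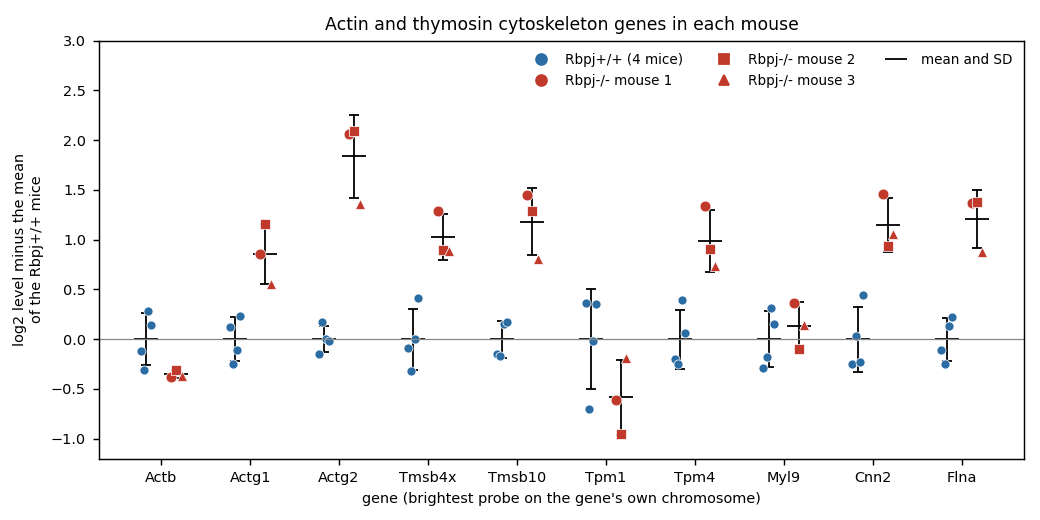
Log2 level of the brightest own-chromosome probe of each gene in each mouse, minus the mean of the Rbpj+/+ mice (vertical axis), for the 10 genes (horizontal axis). Blue circles are the 4 Rbpj+/+ mice, red symbols the 3 Rbpj-/- mice, and bars the mean and SD. The red symbols lie above all blue ones for 7 genes, below them for Actb, and overlap them for Tpm1 and Myl9.

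Tpm1 is the gene with the most probes on its own chromosome, 5, and its probes disagree. Tpm1 makes many tropomyosin isoforms through alternative starts and exons, and the array design names a transcript variant for each probe, which the probe may share with other variants. The probe named for Tpm1.2 (chr9:66871166-66871225) had levels of 0.64, -0.13, 0.51 and 0.43 in Rbpj+/+ and 2.15, 2.23 and 1.73 in Rbpj-/- mice, a 3.19-fold rise (1.67 ± 0.24, adjusted p = 0.00281). The probe named for Tpm1.10 (chr9:66872131-66872190), which is the brightest and therefore represents the gene, had levels of 3.66, 2.60, 3.28 and 3.66 against 2.691, 2.348 and 3.105. These groups overlap, and the difference of -0.58 ± 0.31 did not pass (adjusted p = 0.197). It passed only when Rbpj+/+ mouse 2, the lowest of its group, was left out (-0.82, adjusted p = 0.0463).

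The other 3 probes of Tpm1 rose by less than the Tpm1.2 probe. The Tpm1.5 probe (chr9:66880274-66880333) had levels of 0.43, 0.28, 0.89 and 0.15 in Rbpj+/+ and 1.59, 1.43 and 1.02 in Rbpj-/- mice, a 1.87-fold rise (0.90 ± 0.24, adjusted p = 0.0289). Both Tpm1.1 probes lie on top of each other (chr9:66875782-66875841 and chr9:66875796-66875855) and share 46 bases. Their log2 differences were 0.61 (adjusted p = 0.0459) and 0.63 (adjusted p = 0.0867). For the probe at 66875782 the difference was 0.06 under normexp background correction (adjusted p = 0.749), and the call was also lost under quantile normalization (adjusted p = 0.149) and with the series matrix values (adjusted p = 0.152). That at 66875796 passed under these settings, with a difference of 0.37 under normexp, and with no filter on dim probes both calls and that of the Tpm1.5 probe were lost (adjusted p = 0.243, 0.343 and 0.183). In these 2 probes Rbpj-/- mouse 3 was the highest of its group, with -0.42 and 0.48. All of these 3 calls also rest on few mice: the Tpm1.5 call was lost without Rbpj-/- mouse 2 (adjusted p = 0.102), and each Tpm1.1 call without Rbpj+/+ mouse 3, Rbpj-/- mouse 2 or Rbpj-/- mouse 3 (adjusted p = 0.110 to 0.263), that at 66875796 also without Rbpj+/+ mouse 1 or 4 (adjusted p = 0.108 and 0.170).

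The probes of Tpm1 were compared with each other within each mouse, in 10 pairs and after their values had been seen. The Tpm1.2 probe minus the Tpm1.10 probe was -3.02, -2.73, -2.77 and -3.22 in the Rbpj+/+ mice and -0.54, -0.12 and -1.38 in the Rbpj-/- mice, a shift of 2.26 (exact permutation p = 0.0286, 0.0816 adjusted over the pairs). The Tpm1.10 probe minus the Tpm1.5 probe shifted the other way, by -1.49 (exact permutation p = 0.0286, adjusted 0.0816). Over all pairs, 7 of 10 had an adjusted p below 0.1 and 6 did not overlap between the genotypes. The pairs share probes and are not independent. All 7 hold the Tpm1.2 or the Tpm1.10 probe, so the count restates how these probes differ from the others. No share over other pairs of probes was computed. The overlapping Tpm1.1 probes shifted against each other by -0.02 (exact permutation p = 0.771).

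**Figure D4:**
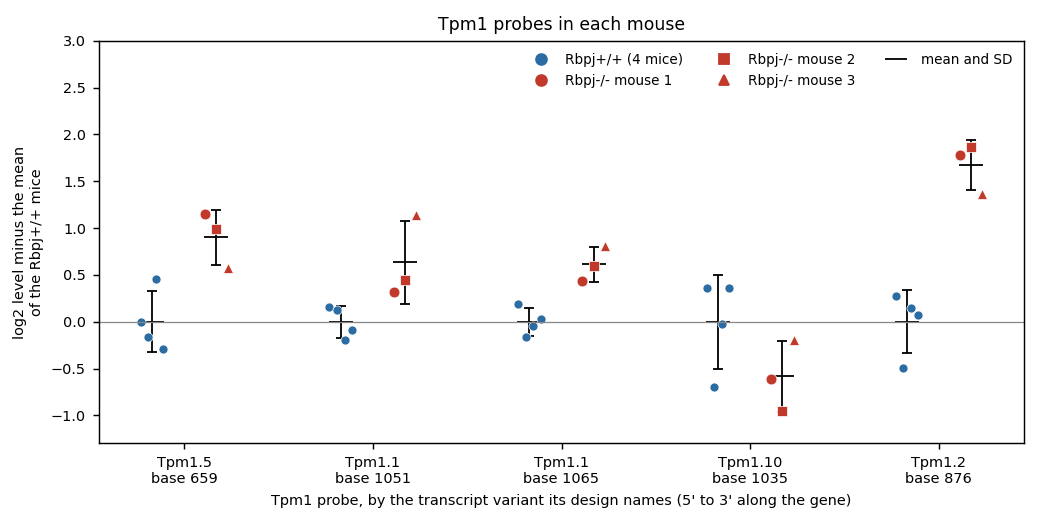
Log2 level of the 5 Tpm1 probes in each mouse, minus the mean of the Rbpj+/+ mice (vertical axis), ordered 5′ to 3′ along the gene and named by transcript variant and base (horizontal axis). Blue circles are the 4 Rbpj+/+ mice, red symbols the 3 Rbpj-/- mice, and bars the mean and SD. The Tpm1.2 probe shows the largest mean rise of the 5 at 1.67, and the Tpm1.10 probe has a mean of -0.58 with overlapping groups.

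Tpm4, another tropomyosin gene of cells outside striated muscle, was read at chr8:74676891-74676950. Its levels were 2.94, 2.88, 3.53 and 3.19 in Rbpj+/+ and 4.47, 4.04 and 3.87 in Rbpj-/- mice. The groups did not overlap and the rise was 1.99-fold (0.99 ± 0.24, adjusted p = 0.0196).

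Myl9 encodes a regulatory light chain of smooth muscle and non-muscle myosin II and was read at chr2:156607301-156607360. Its levels of 1.97, 2.08, 2.58 and 2.41 in Rbpj+/+ and of 2.63, 2.16 and 2.41 in Rbpj-/- mice overlap. The difference was 0.14, with a 95% interval of -0.37 to 0.64 (adjusted p = 0.682).

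Cnn2, the calponin of non-muscle cells, has 2 probes on chromosome 10. The probe at chr10:79457785-79457844 had levels of -0.24, 0.05, -0.22 and 0.46 in Rbpj+/+ and 1.47, 0.95 and 1.06 in Rbpj-/- mice, a 2.22-fold rise (1.15 ± 0.24, adjusted p = 0.0115). The probe at chr10:79457370-79457429 rose 1.90-fold (0.93 ± 0.21, adjusted p = 0.0164). Under normexp background correction the second probe rose by 0.35 on the log2 scale (adjusted p = 0.0919). Neither probe overlapped between the genotypes, and the difference between the probes shifted by 0.22, within the spread of the mice (exact permutation p = 0.314).

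Flna encodes filamin A, which joins actin filaments and anchors them to the membrane. Its probe at chrX:71468802-71468861 had levels of 3.06, 2.92, 3.30 and 3.39 in Rbpj+/+ and 4.54, 4.55 and 4.04 in Rbpj-/- mice. The groups did not overlap and the rise was 2.31-fold (1.21 ± 0.22, adjusted p = 0.00649).

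The mice are numbered within their group in the order of deposit, and those of a group differed in a similar way across many of the genes. Rbpj-/- mouse 3 was the lowest of the Rbpj-/- mice for 6 of the 7 risen genes and for 13 of the 17 risen probes. Rbpj+/+ mouse 2 was the lowest of the Rbpj+/+ mice for 5 of the 7 risen genes, and Rbpj+/+ mouse 4 the highest for 5. No such counts were made over all tested probes, so whether this order is particular to these genes was not tested. Actg1 and Tpm1 hold several of the 17 probes, which are thus not separate readings. The gap between the highest Rbpj+/+ and the lowest Rbpj-/- mouse was 0.32 (Actg1) to 1.19 (Actg2) on the log2 scale.

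The other genes of the actin cytoskeleton were read in 8 lists. Without the 10 genes above, 54 of 60 listed genes could be tested, of which 25 rose (46.3%) and 1 fell, with a median log2 fold change of 0.48. The share of all genes that rose was 14.6%. These lists were chosen with results of these data known, so the counts describe them only.

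Among the muscle and cytoplasmic actins Acta2, the smooth muscle alpha actin, rose by 1.70 on the log2 scale (adjusted p = 0.00603), from 0.11 to 0.71 in Rbpj+/+ to 1.44 to 2.65 in Rbpj-/- mice, while Acta1 and Actc1 were too dim to test. Of 9 further genes of monomer binding and filament turnover, 2 rose, Twf2 by 1.31 and Wdr1 by 0.96, both of which act with cofilin or on monomers in filament disassembly. Both other tropomyosins rose, Tpm3 by 0.79 and Tpm2 by 0.63. Of 7 further myosin II genes 4 rose, the regulatory light chains Myl12a (1.31) and Myl12b (0.65) and the heavy chains Myh10 (0.85) and Myh14 (0.52), while Myl9 itself did not pass.

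In the calponin and transgelin family 3 of 6 further genes rose. Tagln2, a transgelin of non-muscle cells, rose by 2.45 (adjusted p = 0.000491), and Tagln, its smooth muscle relative, by 0.74. Cnn1, the smooth muscle calponin, was not well above background in any Rbpj+/+ mouse and was higher in Rbpj-/- liver (adjusted p = 0.0135, limma on its measured signals). With a floor under the Rbpj+/+ signals the rise was 3.53-fold. This floor takes, for each Rbpj+/+ array, the higher of the own signal of the probe and the lowest signal among probes well above background. In Rbpj+/+ mouse 2 the probe lay above that lowest signal (-3.14 against -3.34) and was still not well above background. The 3.53-fold is therefore not a firm lower bound. Of 14 further filamins, crosslinkers and anchors 7 rose and 1 fell, with Pls1, a plastin of microvilli, up by 2.70, Flnc up by 1.47, Fscn1, which bundles filaments, up by 1.38, and Rdx, which links actin to the membrane, down at -0.92 (adjusted p = 0.0150). The Flnc probe was well above background in 1 and the Fscn1 probe in 3 of the 4 Rbpj+/+ mice, so that both values rest partly on signals near background.

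Of the 9 subunits of the Arp2/3 complex, which starts branched filaments, 2 rose, Arpc1b by 0.93 and Actr3 by 0.57. Both were read by probes that the array design places on other chromosomes than the gene (13 in place of 5 and X in place of 1), and neither had a tested probe on its own chromosome. Read by the brightest tested probe on the own chromosome, which 49 of the 54 genes of the lists had, 22 genes rose and 1 fell. Of 6 tested capping and severing genes 4 rose, Capza2 by 2.18, Vil1 by 1.26, Capg by 0.91 and Gsn by 0.88, the Vil1 probe being well above background in only 2 of the 4 Rbpj+/+ mice. The summed level of a list did not overlap between the genotypes, and was higher in Rbpj-/- liver, for 6 of the 8 lists with the 10 genes included. In lists that hold some of the 10 genes, the sums include the rise of those genes. No share over other gene sets was computed, so this count is a description only.

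**Figure D5:**
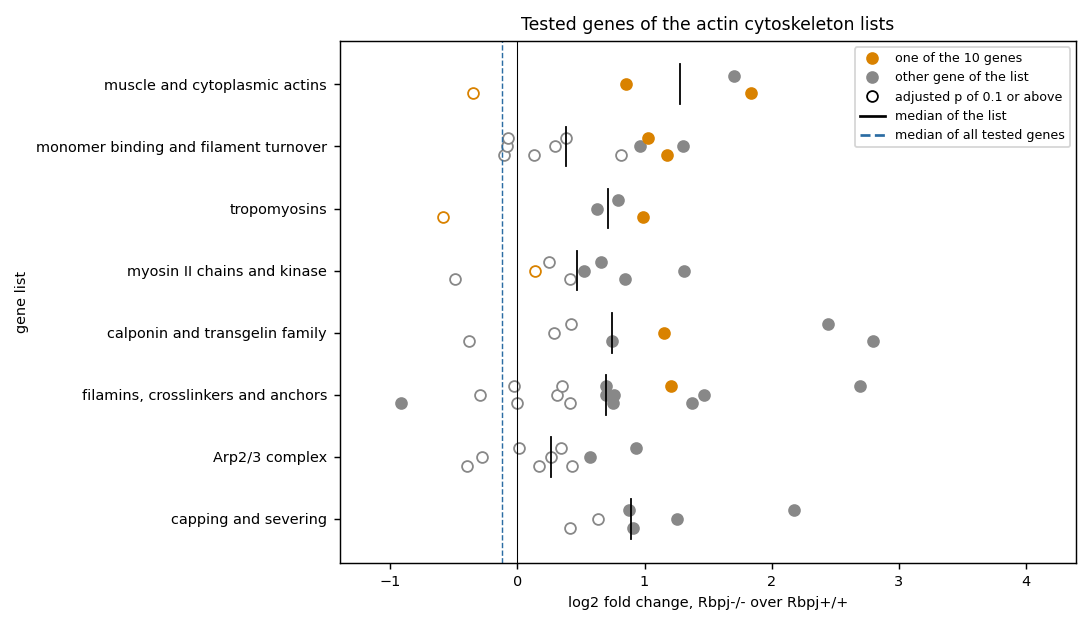
Log2 fold change of Rbpj-/- over Rbpj+/+ liver (horizontal axis) for each tested gene of the 8 actin cytoskeleton lists (vertical axis), 1 probe per gene. Orange points are the 10 genes of the report, grey points the other genes, open points did not pass the adjusted p of 0.1, black bars are list medians and the dashed line is the median of all tested genes at -0.13. Filled points lie to the right of 0 in all 8 lists, with Rdx at -0.92 the exception on the left.

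Markers of the cell types of the liver were read beside all tested genes, of which 14.6% rose and 19.5% fell. Of 12 hepatocyte markers 6 fell and 0 rose, and their summed linear level, relative to the 75th percentile, was 4864 to 6297 in Rbpj+/+ and 2964 to 3604 in Rbpj-/- liver. Before scaling, Serpina1a and Apoa2, the brightest of these markers, overlapped between the genotypes. Their intensities were 86855 to 121971 and 73282 to 99985 in Rbpj+/+ mice. In Rbpj-/- mice they were 91591 to 98491 and 79473 to 88326. These falls are thus relative to the 75th percentile of each array. Of 12 stellate cell and myofibroblast markers, Acta2 and Tagln among them, 9 rose, with sums of 63.3 to 95.4 and 146 to 239. Of 10 macrophage markers 8 rose and 1 fell, with sums of 86.5 to 108 and 286 to 409. These sums do not overlap between the genotypes.

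Of 10 endothelial markers 6 rose and 1 fell (57.3 to 83.4 against 98.9 to 150). Of the 6 smooth muscle markers tested 3 rose (6.44 to 8.74 against 11.6 to 13.2), and the defining marker Myh11 was too dim to test. These 3 were Actg2, which is one of the 10 genes of this report, and Acta2 and Cnn1, already counted in the cytoskeleton lists. They are thus no separate reading of smooth muscle. Of 6 cholangiocyte markers tested 2 rose (3.69 to 4.30 against 4.74 to 11.5), Epcam being too dim to test. Of 9 lymphocyte markers tested 5 fell and 1 rose (32.8 to 44.3 against 13.2 to 20.8), and of 7 neutrophil markers 3 rose and 1 fell (6.30 to 25.2 against 33.8 to 70.7). Platelet sums were 2.24 to 4.98 and 6.02 to 8.43, with 1 of 4 tested markers, Pf4, higher. Erythroid sums overlapped at 229 to 521 and 103 to 434, with 1 of 6 higher and 1 lower. The platelet and erythroid counts hold few genes and do not stand out from the shares over all tested genes. No share of sums without overlap was computed over other gene sets, so the sums are a description only. Of the 2 brightest markers of each type, Serpina1a (-0.83) and Apoa2 (-0.74) of hepatocytes fell, and Col1a2 (1.37) and Col3a1 (0.95) of stellate cells, Csf1r (1.14) and Marco (2.93) of macrophages, Spp1 (1.66) and Sox9 (1.32) of cholangiocytes and S100a8 (2.62) and S100a9 (2.46) of neutrophils rose, all as log2 fold changes. Clec4g (1.21) of endothelium and Pf4 (1.28) of platelets rose, Cd4 (-1.54) of lymphocytes and Alas2 (-2.13) of erythroid cells fell, and Stab2 (0.48), Ppbp (-0.27), Nkg7 (-0.42), Hba-a1 (-0.28) and the smooth muscle gene Smtn (0.29) did not pass. The part of these shifts in the changes of the actin and thymosin genes was not tested.

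The genes whose levels over the 7 mice came nearest to the mean profile of the 10 genes, each centred on its own mean, were Gpm6b, Col16a1, Ankfy1, Sap30 and Magef1, with root mean square differences of 0.0829 to 0.104 among 13518 genes compared. All 5 rose, by 0.64 to 0.89 on the log2 scale, which follows from choosing them by this profile and is no separate result. Ankfy1 was well above background in only 2 of the 4 Rbpj+/+ mice.

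The promoters were searched for the CArG box, the site at which SRF binds many actin genes. RefSeq promoters (GRCm38.p6), 250 bases before to 50 after the gene start, were given for 8 of the 10 genes. On either strand, a CArG box lies in 535 of all 32851 such windows (1.63%), and in at least 1 window of 488 of the 27025 genes (1.81%). It was found for 3 of the 8 genes, Cnn2, Actg1 and Myl9, starting 56, 90 and 161 bases before the gene start. The boxes are shown in capitals with the 10 bases on each side, at chr10:79988534-79988563 (plus strand) for Cnn2, chr11:120348566-120348595 (minus strand) for Actg1 and chr2:156775293-156775322 (plus strand) for Myl9.
Cnn2: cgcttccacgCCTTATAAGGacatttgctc
Actg1: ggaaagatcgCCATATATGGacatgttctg
Myl9: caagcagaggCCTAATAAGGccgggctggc

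Cnn2 and Actg1 rose and Myl9 did not pass the test, as given above. Tmsb4x, Tmsb10, Tpm1, Tpm4 and Flna hold no match in these windows, which says only that these letters are not there.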

How the data were processed

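Total RNA of whole liver was measured on Agilent arrays of 1 colour, in 4 Rbpj+/+ and 3 Rbpj-/- mice. The deposited scanner files hold, as intensity values, background-subtracted spot signals and, beside them, quality flags; the authors made both in Feature Extraction 10.7.3.1, and the arrays are not normalized to each other. The deposited series matrix holds the authors' log2 values of the same arrays, which follow quantile-normalized log2 intensities centred per probe and served as an alternative.

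Spots marked as non-uniform or population outliers were left out, spots of a probe were averaged as log2 intensity, and each array was shifted by its 75th percentile. A probe had to be positive, significant and well above background in every mouse of at least 1 genotype, and was then tested with limma 3.58.1 (R 4.3.3), adjusted by Benjamini-Hochberg over 24548 probes at a threshold of 0.1. A gene is represented by its brightest tested probe, for the 10 genes on their own chromosome. Single differences were tested by exact two-sided permutation over 35 splits. Named are all 10 genes, Rbpj, up to 4 called genes per cytoskeleton list by size, markers, and the 5 nearest profiles. The 10 genes and the lists were chosen with earlier results of these data known. Each array is a separate mouse, so p-values measure the spread between mice. The number of arrays limits the precision. The fit was tested on simulated data. Coordinates are those of the array design (mm9), and gene names and chromosomes come from RefSeq (GRCm38.p6). Alternatives were background correction, normalization, filter, flagged spots, variance model, threshold, probe choice and leaving out each mouse. 1 planned gene list is not reported here.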

Additional observations from a re-analysis of the deposited data

How the results depend on the processing

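The count of risen probes among the 20 was 13 to 17 when each mouse was left out, lowest without Rbpj-/- mouse 2, where 9.26% of all tested probes rose against 14.3% with every mouse, and that of risen genes 6 to 7. The count of fallen probes, and of fallen genes, was 0 to 2, the 2 being Actb and the Tpm1.10 probe without Rbpj+/+ mouse 2. With no filter on dim probes, so that 55681 probes were tested, 2.14% of all probes rose, 9 probes and 3 genes of the actin and thymosin set rose, and the own-chromosome Actg1 probe (adjusted p = 0.170), Tmsb4x (0.125), Tpm4 (0.147) and both Cnn2 probes (0.108 and 0.135) no longer passed, at the same fold changes. In the cytoskeleton lists 9 genes then rose and 0 fell, and in the marker lists 17 rose and 4 fell, against 33 and 15 before. Of the 54 tested genes of the cytoskeleton lists 34 rose under quantile normalization, 35 under normexp and 34 with the percentile over detected probes, against 25 before. Under quantile normalization 2 of them fell, and without single mice 1 to 3 fell and 17 to 24 rose. With own-chromosome probes, chosen after seeing the data, 22 rose. Marker genes that rose numbered 27 to 32 and those that fell 13 to 17 without single mice, and 10 fell under quantile normalization. The Actg1 shift between placements was 1.12 to 1.28 without single mice, where no p below 0.0667 is possible, and the Tmsb10 shift -0.01 to 0.05, with 0.10 under normexp (adjusted p = 0.0857). Signs turned for Actb (0.21 under quantile normalization, 0.22 in the series matrix), for Myl9 (-0.038 without Rbpj+/+ mouse 2 and Rbpj-/- mouse 1 together, an alternative chosen after seeing the data because dim probes were brighter on both arrays; 16 probes and 7 genes rose in it), and for Tpm1 when its 5 probes were averaged (0.65, adjusted p = 0.0379). With that average 8 genes rose. The Actg1 shift between placements was 0.89 under normexp. The causes were not tested. Of 349 single values under the alternatives, 320 kept their direction and their side of the threshold. The median over all tested probes ranged from -0.28 without a filter to -0.04, and the share of risen probes among all called ones was 42.7%, and 51.3% under quantile normalization. No paired analysis was possible because the mice carry no shared numbers.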
